A study of Bos taurus with 18 samples.

Results

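Hyaluronan synthases, hyaluronidases and a hyaluronan-binding partner were followed in bovine mesenchymal stem cells (MSCs) through 7 genes chosen by symbol: HAS1, HAS2, HAS3, HYAL1, HYAL2, TMEM2 and TNFAIP6. All 7 were found among the 16989 genes counted, and all 7 passed the filter on low counts that left 11878 genes for testing. RNA was sequenced from 17 clonal populations, lettered A to Q and each grown from a single cell, and from 1 heterogeneous population of uncloned cells (Het), with 1 library each. The cells came from the bone marrow of a single juvenile animal, were grown as monolayers in basal medium with serum, and were collected at passage 1 before any chondrogenic induction. The labels give no genetic change or treatment for either group. Because each clone was sequenced once, the spread between clones cannot be divided into a clonal and a technical part, and all clones share 1 donor.

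Hyaluronan is an unsulfated glycosaminoglycan that is spun out at the plasma membrane rather than assembled in the Golgi. The 3 HAS enzymes join UDP-glucuronate and UDP-N-acetylglucosamine into the chain, and hyaluronidases cut it again at the cell surface and in lysosomes. In cartilage the chain is the backbone on which aggrecan (ACAN) is held by link proteins, and receptors such as CD44 tether it to cells.

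The libraries held 11484812 to 18458157 reads on genes in the clones and 16092501 in Het, so that 3 reads, the least taken here as a limit, stood for 0.170 to 0.273 CPM, the count of a gene relative to the library total after TMM scaling, which corrects for differences in RNA composition. The 10 mesenchymal markers had reads in these libraries, with a summed level of 33901.5 to 170908 CPM in the clones and 172206 CPM in Het. The 8 macrophage markers, none of them at 0 in all libraries, summed to 2.29 to 7.95 CPM in the clones and 169.5 CPM in Het, where each of the 8 was above every clone. Clones C and O were the most alike of all pairs of libraries, but their counts still differed by more than sampling noise (chi-square per gene 4.88), and they were kept as separate samples.

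Reads of the synthase HAS1 were few. In the clones its level ran from 0 in D through a median of 0.673 CPM to 4.10 CPM in A, which corresponds to between 0 and 45 reads, and Het had 3 reads or 0.197 CPM. Clone A stood alone at the top, since its 95% counting interval (exact Poisson, 2.99 to 5.49 CPM) did not overlap that of the next clone, L, at 1.84 CPM. Against D, where 3 reads would have been 0.268 CPM, the level of clone A was 15.3-fold that limit, a ratio that leaves out the counting error of A. For 5 clones the interval lay above the clone median and for 1 clone, D, below it. Intervals and read limits cover counting error only.

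HAS2, the synthase usually associated with fibroblasts and developing skeletal tissue, had no clone set apart at the top. Its clone values ran from 0.287 CPM in K through a median of 2.004 CPM to 5.06 CPM in M, from 4 to 84 reads, a 17.6-fold range. Het, with 4 reads and 0.263 CPM (interval 0.0715 to 0.672), was below all 17 clones, though its interval overlapped that of K (0.0782 to 0.735). After M came P at 3.46, O at 3.30, C at 3.16 and E at 3.02 CPM. No neighbours in the order of the 17 clones had separate intervals. With so few reads the intervals are wide, so this does not show that the order was gradual. Still, 5 clones lay above and 7 below the median by more than counting error.

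HAS3 was concentrated in a few clones. It ran from 1.08 CPM in E through a median of 2.34 CPM to 11.4 CPM in L, a 10.5-fold range, and Het had 2.30 CPM. Clone L, with 185 reads, was separated from A at 7.56 CPM, and A and G (7.02 CPM) were separated from the remaining 14 clones, of which I was highest at 4.21 CPM. HAS3 overlaps the genes DERPC and CHTF8 in the annotation at hand, which belongs to another assembly than the one used for counting. Of these, only CHTF8 was among the counted symbols. Whether reads shared with CHTF8 were lost to HAS3, or reads of DERPC were counted on it, was not tested.

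No pair of synthases passed a test of moving together. Over the 17 clones the Pearson correlation of log2 levels (log2 of CPM plus 0.25) was 0.0353 between HAS1 and HAS2 (permutation p = 0.894), 0.420 between HAS1 and HAS3 (permutation p = 0.0933) and -0.219 between HAS2 and HAS3 (permutation p = 0.397). The Spearman values were -0.0368 (p = 0.892), 0.203 (p = 0.430) and -0.282 (p = 0.271) by the same permutation test. Each pair has an adjusted p over the correlations of either gene, and the smallest for these Pearson values was 0.322, for HAS1 with HAS3. The balance of HAS3 to HAS2 reads within a library, which does not depend on scaling, covered a 40.5-fold range. It ran from 0.286 HAS3 reads per HAS2 read in M (95% exact Clopper-Pearson interval 0.174 to 0.454) through a median of 2.11 to 11.6 in L (6.93 to 20.7). In 6 clones the interval lay above the median and in 6 below it. The low side held M, E, P, Q, C and O, and the high side held G, A, I, H, K and L. Het, at 8.75 (3.13 to 33.9), sat on the high side with K and L. Transcript lengths were not available here, so the ratio compares libraries and does not say which synthase had more transcripts.

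**Figure D1:**
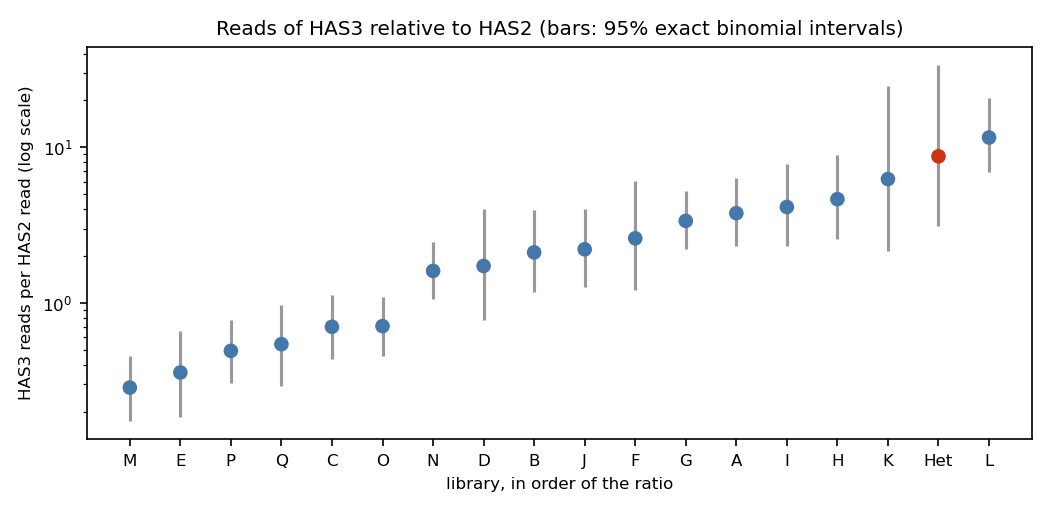
HAS3 reads per HAS2 read in each library (log axis), in increasing order, with 95% exact binomial intervals that cover counting error only; clones are blue and the heterogeneous population red. The ratio ran from 0.286 in clone M to 11.6 in clone L, and Het stood at 8.75.

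HYAL1 and HYAL2 gave steadier levels. HYAL1, the lysosomal hyaluronidase, ran from 23.6 CPM in L through a median of 48.3 CPM to 69.4 CPM in P (385 and 1225 reads), a 2.94-fold range, with Het at 42.7 CPM. The 4 lowest clones were L, G (26.7 CPM), O (32.3 CPM) and I (32.9 CPM), and the 3 highest were P, Q (62.5 CPM) and A (62.3 CPM). HYAL2, which is anchored at the cell surface and cleaves long chains into intermediate fragments, ran from 10.8 CPM in I through 15.2 CPM to 24.8 CPM in C, a 2.301-fold range, with Het at 12.1 CPM. Clones C, O (24.4 CPM) and P (22.1 CPM) formed a top group whose lowest interval was separated from the next clone, G, at 17.5 CPM. HYAL2 overlaps TUSC2 in the same annotation. If the models used for counting overlap too, counts without strand leave out reads shared by the pair, which was not tested.

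TMEM2 (also named CEMIP2), a transmembrane relative of KIAA1199 described as a cell-surface hyaluronidase, ran from 28.5 CPM in D through 50.8 CPM to 89.6 CPM in O, a 3.15-fold range. Clones O and C (78.5 CPM) were each separated from the clone that followed, D was separated from J at 39.1 CPM, and Het, at 53.75 CPM, lay among the clones. TNFAIP6 (TSG-6), a secreted protein that binds hyaluronan and transfers heavy chains of inter-alpha-inhibitor onto it, was read sparsely. Its level ran from 0 in A and I through 0.655 CPM to 2.36 CPM in Q, with 35 reads, and was 0.197 CPM in Het. The level of clone Q was 8.62-fold that of 3 reads in A and 11.6-fold that of 3 reads in I, ratios that leave out the counting error of Q. O (1.92 CPM), C (1.55 CPM) and E (1.29 CPM) followed Q.

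**Figure D2:**
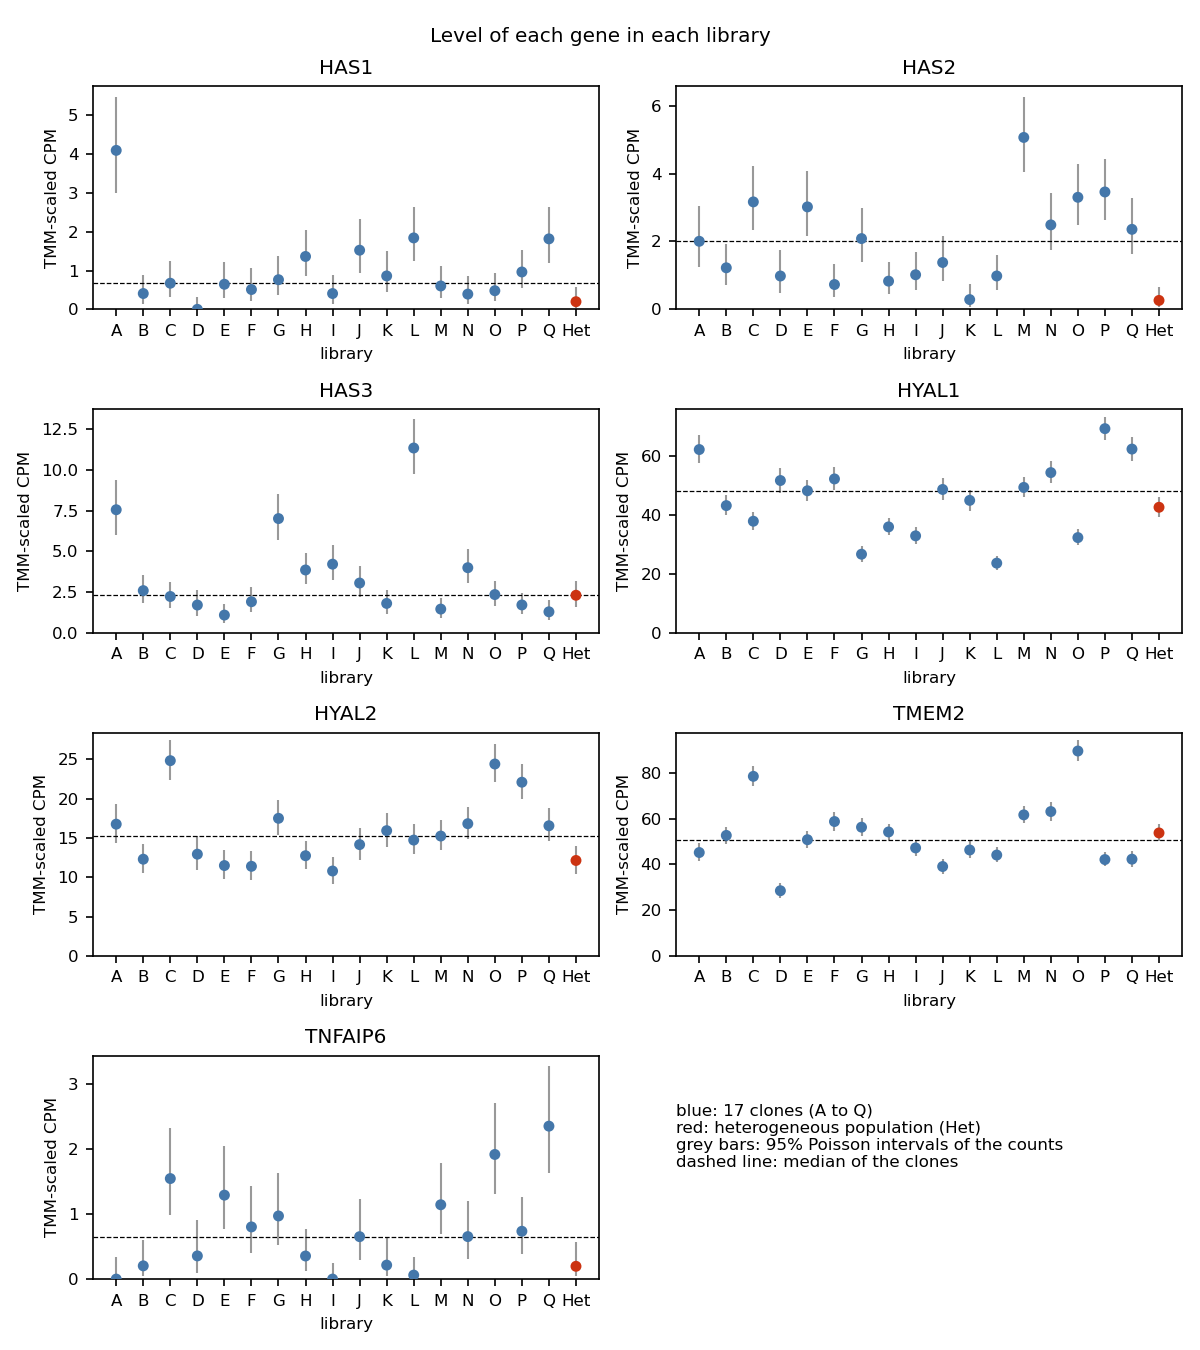
TMM-scaled CPM of the 7 genes in each of the 17 clones (blue) and in the heterogeneous population (red), with 95% exact Poisson intervals (grey) and the clone median (dashed). HAS1 stands out in A, HAS3 in L, A and G, and TMEM2 in O and C, while the HAS2 values run from 0.287 CPM in K to 5.06 CPM in M with overlapping intervals between neighbours.

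The 3 synthases and TNFAIP6 varied more between clones than most genes did. The SD of their log2 level was 0.92 for HAS1, 0.87 for HAS2, 0.89 for HAS3 and 1.05 for TNFAIP6, which lay at the 92.0, 90.7, 91.3 and 94.4 percentiles of the 11878 tested genes, whose median SD was 0.33. Low counts add to such an SD. The coefficient of variation between clones was 93.0% for HAS1, 62.9% for HAS2, 79.6% for HAS3 and 88.2% for TNFAIP6, against 26.2%, 18.1%, 14.003% and 29.1% that counting alone would give. The biological coefficient of variation, in which edgeR sets counting error apart, was 74.7%, 61.4%, 64.3% and 94.2%, at the 92.4, 87.9, 89.1 and 96.3 percentiles. By contrast, HYAL1, HYAL2 and TMEM2 had SDs of 0.43, 0.36 and 0.39, at the 65.1, 55.5 and 59.2 percentiles, and biological coefficients of variation of 28.7%, 26.4% and 26.7% beside a median of 24.5% over all genes. With a pseudocount of 1 CPM in place of 0.25 the SDs of HAS1, HAS2, HAS3 and TNFAIP6 fell to 0.55, 0.61, 0.73 and 0.54.

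Whether a gene set any single clone apart was asked by testing each clone against the other 16 with edgeR's quasi-likelihood test and Benjamini-Hochberg adjustment over all genes. None of the 119 values of the 7 genes passed an adjusted p of 0.05, and DESeq2 called none of them either. By unadjusted p under 0.05 there were 10 (8.40%), beside 4.4% over all genes and clones. The background of adjusted calls was 0.045% of 199937 tests, with 86 genes (0.731%) called for N, 4 (0.034%) for M and 0 (0%) for each of the other 15 clones. Of those 10, 3 rest on a library at 0 (HAS1 in D, TNFAIP6 in A and I), for which a fitted difference is no bound, and the smallest edgeR adjusted p among the 3 was 0.945, for HAS1 in D. HAS3 in L was higher by 1.93 on the log2 scale (SE 0.66, edgeR adjusted p = 0.583), HAS1 in A by 2.29 (SE 0.80, edgeR adjusted p = 0.989), TMEM2 in O by 0.82 (SE 0.30, edgeR adjusted p = 0.565) and HYAL2 in C by 0.69 (SE 0.32, edgeR adjusted p = 0.751). HAS2 in K (-2.86, SE 1.14), HYAL1 in L (-0.99, SE 0.41) and TMEM2 in D (-0.94, SE 0.37) lay on the other side, with edgeR adjusted p-values of 0.999, 0.583 and 0.953. These tests take the lone clone to vary like the others. In simulated data of this design for clone M edgeR recovered 11.7% of genes changed by 1 on the log2 scale. For a change of 2 the share was 65.8%, so that differences of the size of HYAL1 or TMEM2 were mostly out of reach. Both shares pool all changed genes, and the share among genes with as few reads as HAS1, HAS2 and TNFAIP6 was not tested.

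Comparing Het with the 17 clones asks how a mixed culture differs from populations that each passed through a single cell. Het also differed in other ways. Its summed level of 4 genes of cycling cells was 31.0 CPM, against 38.5 to 965 CPM in the clones, and it had more macrophage-marker reads than any clone. The part of either in the differences below was not tested. None of the 7 genes passed the adjusted threshold, where 145 of 11878 genes (1.22%) did, 144 of them higher in Het. By unadjusted p under 0.05 it was 1 of the 7, HAS2, beside 7.68% of all genes. The largest differences were in the sparsely read genes. HAS2 had 4 reads in Het against 4 to 84 in the clones and a log2 difference, Het minus clones, of -2.91 (SE 1.29, edgeR p = 0.0359, adjusted p = 0.610). HAS1 (3 reads, 16 of 17 clones above Het) gave -2.32 (SE 1.57, edgeR adjusted p = 0.721), and TNFAIP6 (3 reads, 14 of 17 clones above) gave -1.95 (SE 1.84, edgeR adjusted p = 0.803). The lone rank of Het below all clones for HAS2 could not reach a two-sided exact permutation p below 0.111.

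HAS3, HYAL2 and HYAL1 differed from the clones by -0.59 (SE 1.03), -0.39 (SE 0.39) and -0.10 (SE 0.42), with edgeR adjusted p-values of 0.898, 0.814 and 0.963. TMEM2 stood at 0.02 (SE 0.38, edgeR adjusted p = 0.991), and its sign turned negative when libraries were scaled by their totals (-0.07) and when D or J was left out. In all, 6 of the 7 differences were negative with a median of -0.59, beside 6360 negative values and a median of -0.04 among all genes tested. With DESeq2 none of the 7 was called, and the smallest adjusted p was 0.331, for HAS2. In simulated data edgeR found 64.8% of genes set 2 log2 units apart in Het, and 8.76% of those set 1 unit apart. These shares pool all the genes set apart, whatever their read number. The share among genes with as few reads in Het as HAS1, HAS2 and TNFAIP6 was not tested. In these bulk libraries, fewer cells that make a transcript and less of it per cell cannot be told apart.

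Of 37 symbols listed for the wider hyaluronan pathway, 35 were in the files and 20 were tested, of which 2 were higher in Het and 0 lower, with a median difference of -0.23 and 12 negative values. STAB1, a scavenger receptor of hyaluronan on macrophages and sinusoidal endothelium, had 723 reads in Het against 33 to 143 in the clones (log2 difference 3.24, SE 0.41, edgeR adjusted p = 5.1e-05). HAPLN4, a link protein best known from brain, had 29 reads against 0 to 5 (3.61, SE 0.69, edgeR adjusted p = 0.00522). The macrophage markers, 169.5 CPM in Het against at most 7.95 CPM in a clone, moved with STAB1, and their part in its difference was not tested. UGDH, which makes the UDP-glucuronate that synthases use, had 791 reads in Het against 585 to 3115 (-1.18, SE 0.53). After scaling, Het at 51.9 CPM lay below all 17 clones, though only just below D at 52.2 CPM. KIAA1199 (CEMIP), a secreted or membrane-bound hyaluronan depolymerase, had 27353 reads in Het, within the 6891 to 42505 of the clones. Among the genes at or near 0 were VCAN and PTX3, with at most 1 and 3 reads in a clone, and GUSB, STAB2 and AMBP, which were listed at 0 in all 18 libraries. In the files 2548 genes were at 0 throughout. Whether such counts reflect absent RNA or the gene models used for counting was not tested.

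**Figure D3:**
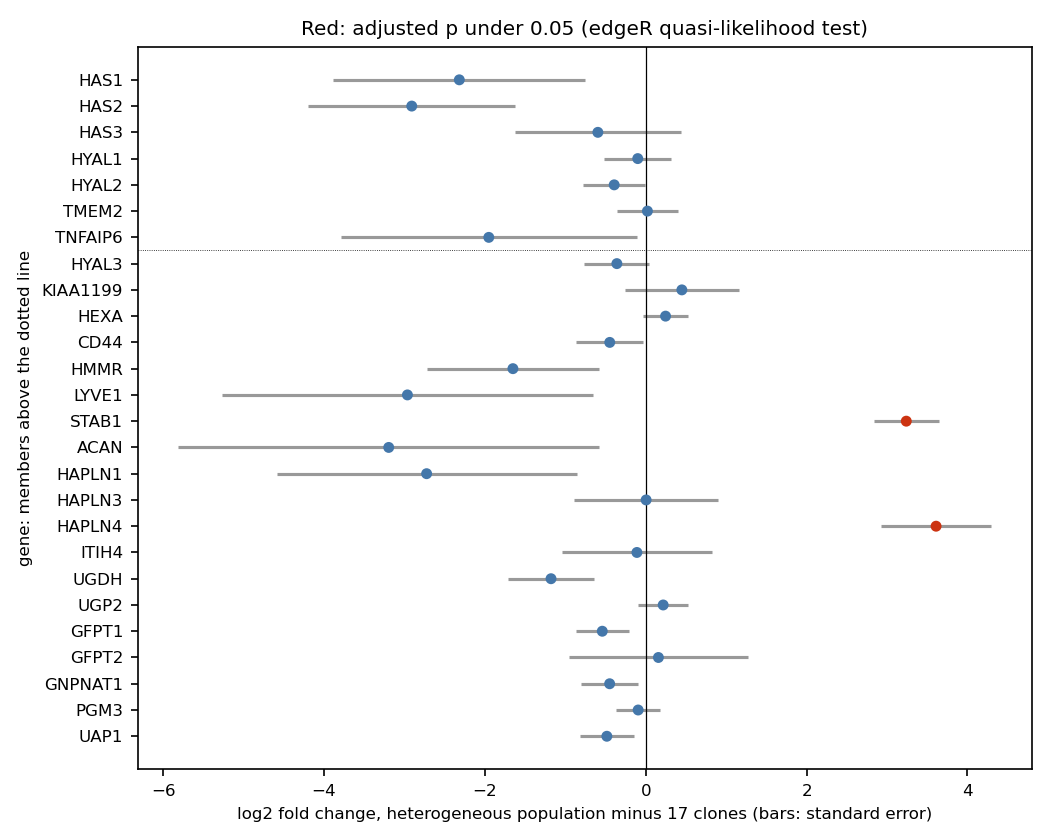
Log2 difference of the heterogeneous population minus the 17 clones for the 7 genes (above the dotted line) and 19 of the 20 tested genes of the wider pathway, with standard errors from edgeR. Only STAB1 (3.24) and HAPLN4 (3.61), in red, passed the adjusted threshold; HAS2 stood at -2.91, and the sign of TMEM2 (0.02) depended on the scaling.

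Levels over the 17 clones were next compared between the 7 genes and the 20 tested pathway genes, 182 correlations in all, each adjusted over the correlations of that gene with all 11877 others. HYAL1 had 6 calls among its 26 partners and HYAL2 had 2, where 20.1% and 6.67% of all genes were called with them, so the number of calls was close to the background. HAS3 (0.269% of genes), TMEM2 (0.0674%), HAS1, HAS2 and TNFAIP6 (0% each) had no called partner. By unadjusted p under 0.05, HYAL1 and HYAL2 had 8 of 26 each, beside 34.3% and 27.9% of all genes, HAS3 had 7 (19.8%) and TMEM2 had 6 (16%). HAS2 and TNFAIP6 had 4 each (8.34% and 6.34%) and HAS1 had 0 (4.82%). The count of 8 calls was 12 with scaling by library totals and fell to 4 without clone O, to 0 without the 2 clones farthest from the median of each gene, and to 0 in the 13 clones left when C, G, L and O were set aside. The share of all genes called under each of these settings was not computed, so these counts cannot be set beside a background.

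The calls of HYAL1 included HEXA and its neighbour HYAL3. HEXA encodes a subunit of a lysosomal hexosaminidase, an enzyme that trims terminal N-acetylhexosamine from oligosaccharides. It ran from 51.9 CPM in G to 112.6 CPM in Q and followed HYAL1 with r = 0.834 (permutation p = 3e-05, adjusted p = 0.00246, rho = 0.836, permutation p = 7e-05; r = 0.765 without L and G). HYAL3, a hyaluronidase relative next to HYAL1 in the cluster HYAL2, HYAL1, HYAL3, ran from 3.19 CPM in L to 7.67 CPM in Q with r = 0.785 (permutation p = 0.00019, adjusted p = 0.00567, rho = 0.782, permutation p = 0.00038; r = 0.718 without L and G). HYAL3 overlaps NAA80 in the annotation at hand, a symbol not among those counted. Whether reads of NAA80 fell on HYAL3 was not tested. In absolute size the correlations of HEXA and HYAL3 exceeded 98.6% and 96.6% of the correlations of HYAL1 with other genes. HYAL2, the neighbour on the other side, had r = 0.0138 with HYAL1 (permutation p = 0.958, rho = 0.0809, permutation p = 0.759).

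The scavenger receptor STAB1 (r = 0.654, permutation p = 0.00458, adjusted p = 0.0301, rho = 0.645, permutation p = 0.00626; r = 0.519 without L and G) was also called with HYAL1, but lost the call in 8 of 25 alternatives. Among them were scaling by library totals (adjusted permutation p = 0.0532), leaving out G, L, O or Q, and adding Het (r = 0.358, adjusted permutation p = 0.303). The hyaluronan receptor LYVE1 fell into separate groups, 282 to 384 reads in N, P and Q and 5 to 51 in the other 14 clones, and within those 14 its correlation with HYAL1 was 0.630 (permutation p = 0.0161, rho = 0.512). HMMR, a hyaluronan-binding protein that also acts on the mitotic spindle, was the only negative call (r = -0.673, permutation p = 0.0032, adjusted p = 0.0246, rho = -0.471, permutation p = 0.0596; r = -0.485 without L and G) and lost the call in 6 of 25 alternatives, among them scaling by library totals (adjusted p = 0.109) and leaving out G, L or O.

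The 4 clones with the most MKI67, a marker of cycling cells, were C, G, L and O, with 7352 to 9834 reads against 358 to 3310 in the other 13. HYAL1 stood at 37.9, 26.7, 23.6 and 32.3 CPM in these 4, all below the clone median. The summed level of 4 cycling genes was 825, 831, 965 and 933 CPM there and 38.5 to 369 CPM in the other 13. Het had a sum of 31.0 CPM, below every clone, with HYAL1 at 42.7 CPM. For the other cycling genes, TOP2A, CCNB1 and CDK1, the gap set only clone M apart. Over the remaining 16 clones, C, G, L and O among them, their r with HYAL1 was -0.793, -0.761 and -0.758. The permutation p-values were 0.0003, 0.00084 and 0.00082, and rho was -0.603, -0.521 and -0.591. Within the 13 clones other than C, G, L and O, HYAL1 and MKI67 gave r = -0.268 (permutation p = 0.373, rho = -0.0989). In the same 13 clones the correlation of HYAL1 was 0.647 with HEXA, 0.618 with HYAL3 and -0.116 with HMMR, with permutation p-values adjusted over all genes of 0.385, 0.402 and 0.909. The part of cycling in the correlations over all clones was not tested.

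**Figure D4:**
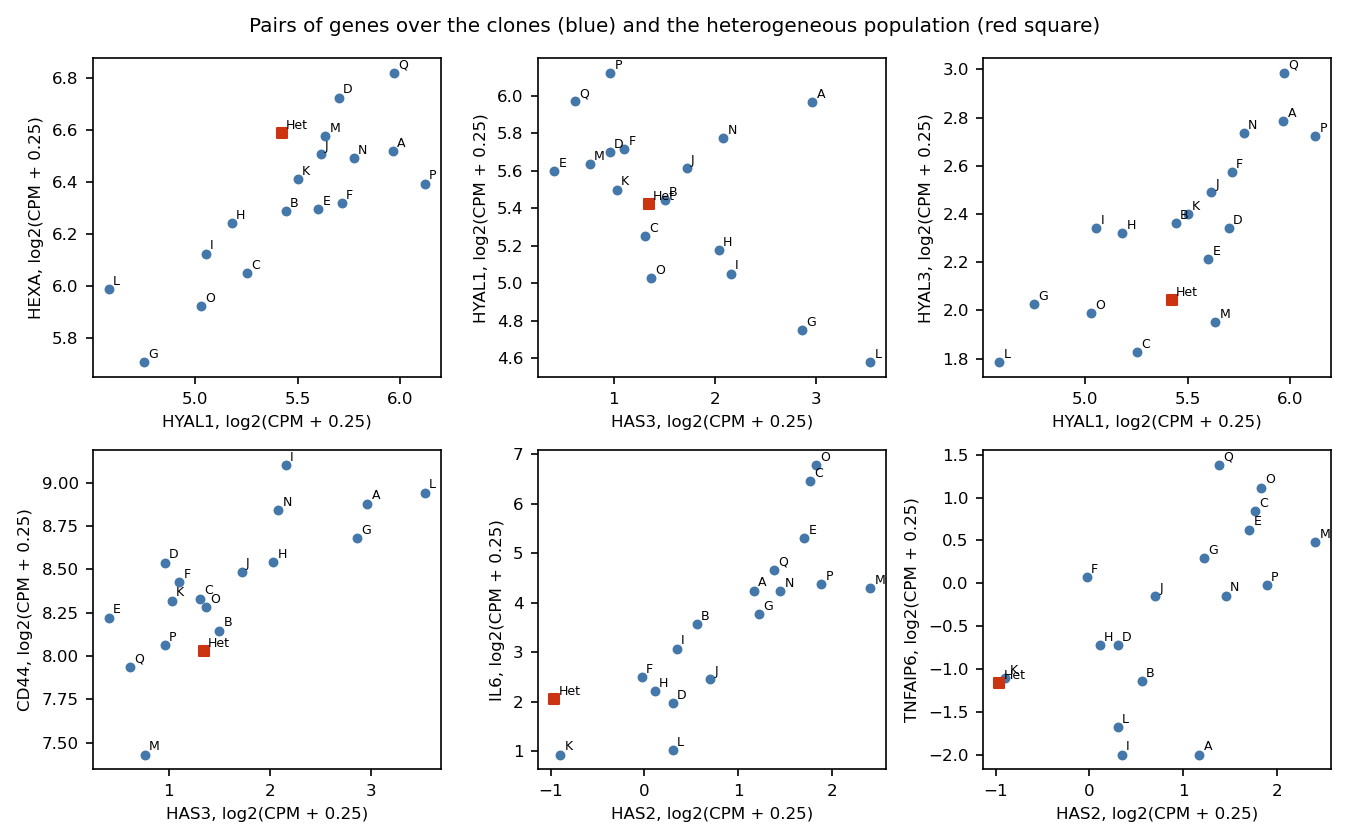
Levels of gene pairs, log2(CPM + 0.25), in the 17 clones (blue, lettered) and the heterogeneous population (red square). Pearson r was 0.834 for HYAL1 with HEXA and 0.785 with HYAL3, and -0.564 for HAS3 with HYAL1, 0.760 for HAS3 with CD44 and 0.606 for HAS2 with TNFAIP6 (these last 3 past no adjusted threshold), and IL6 sets C and O apart.

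HYAL2 had calls with ACAN and with GFPT2, one of the enzymes that begin the making of UDP-N-acetylglucosamine. ACAN formed separate groups, 13206 to 41761 reads in C, N, O, P and Q and 311 to 3899 in the other 12 clones, and within the 12 the correlation with HYAL2 was 0.425 (permutation p = 0.168, rho = 0.517). GFPT2 ran from 8.19 CPM in E to 105.7 CPM in N (r = 0.685, permutation p = 0.00257, adjusted p = 0.0451, rho = 0.652, permutation p = 0.0054; r = 0.667 without C and O), and the call was lost in 14 of 25 alternatives. The adjusted permutation p of GFPT2 was 0.108 with C and O averaged, 0.0549 with Het added and 0.0514 to 0.116 when B, C, D, E, F, I, J, M, O or P was left out. The ACAN call over all clones was lost in 8 of 25, with an adjusted permutation p of 0.104 when C and O were averaged. The link protein HAPLN1 also fell into separate groups, and its correlation with HYAL2 was 0.416 in the 10 lower clones (permutation p = 0.227) and -0.150 in the 7 higher (permutation p = 0.711).

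HAS3 and CD44, the main cell-surface receptor of hyaluronan, did not pass the threshold over all clones. CD44 ran from 172.4 CPM in M to 549.75 CPM in I, and its correlation with HAS3 was 0.760 (permutation p = 0.00034, adjusted p = 0.0621, rho = 0.828, permutation p = 6e-05; r = 0.703 without L and A), larger in size than 99.4% of the correlations of HAS3. The pair passed in 3 of 25 alternatives, where the adjusted permutation p was 0.0416 with library totals, 0.0487 with Het added and 0.0383 without A. In the other 22 the pair did not pass, among them leaving out L (0.323) or Q (0.119) and the 13 clones with less MKI67 (0.377). The correlation itself moved little, from 0.703 to 0.799 over the 25 alternatives. It was 0.737 without L and 0.750 in the 13 clones. TNFAIP6 had a negative value with CD44 that did not pass (r = -0.634, permutation p = 0.00572, adjusted p = 0.571, rho = -0.630, permutation p = 0.00802).

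Among the 21 pairs of the 7 genes, 14 correlations were positive and 7 negative, from -0.600 to 0.606, and none passed the adjusted threshold from either gene of the pair, with 4 at an unadjusted p under 0.05. HAS2 and TNFAIP6 gave r = 0.606 (permutation p = 0.0105, adjusted p = 0.436 from HAS2 and 0.626 from TNFAIP6, rho = 0.622, permutation p = 0.009; r = 0.600 without K and M). Clones C, E, G, M, O, P and Q had more than the median of both genes, and B, D, H, I, J, K and L less than the median of both. HAS3 and TNFAIP6 gave r = -0.600 (permutation p = 0.0111, adjusted p = 0.168 from HAS3 and 0.626 from TNFAIP6, rho = -0.608, permutation p = 0.0108), which dropped in size to -0.370 without L and A. HAS3 and HYAL1 gave r = -0.564 (permutation p = 0.0183, adjusted p = 0.188 from HAS3 and 0.0749 from HYAL1, rho = -0.468, permutation p = 0.0602). That value was -0.777 without A (adjusted permutation p = 0.0267 from HAS3 and 0.00829 from HYAL1) and -0.219 in the 13 clones with less MKI67. HAS2 and HYAL2 gave r = 0.533 (permutation p = 0.0282, adjusted p = 0.535 from HAS2 and 0.134 from HYAL2, rho = 0.591, permutation p = 0.0149).

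**Figure D5:**
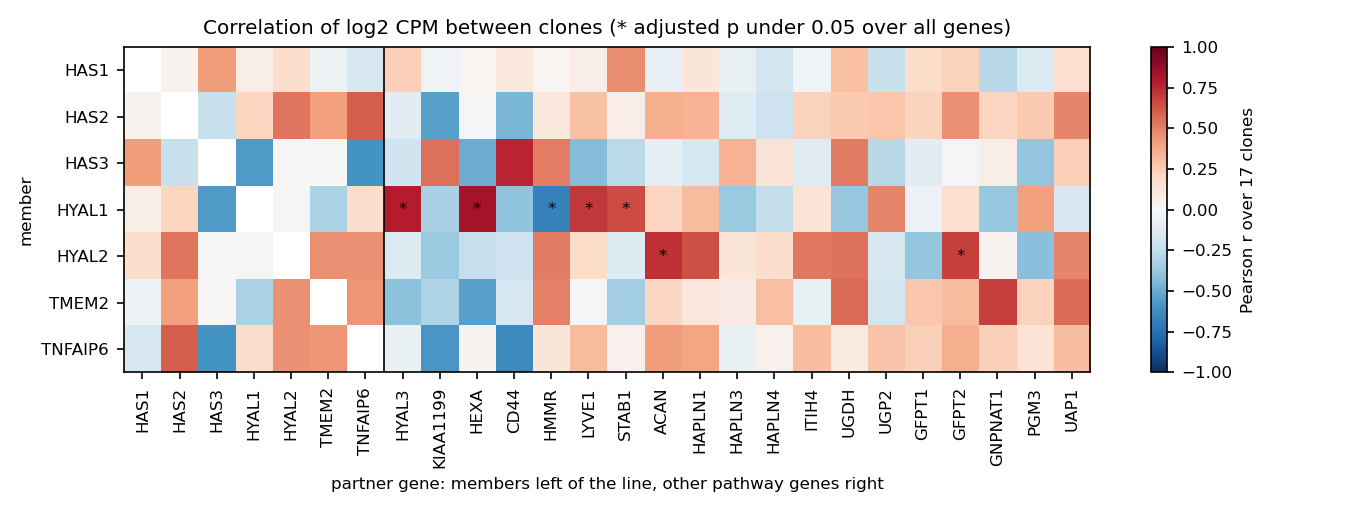
Pearson r over the 17 clones of each of the 7 genes (rows) with the 7 genes and 19 of the 20 pathway genes (columns), where a star marks a permutation p adjusted over all genes under 0.05. The 7 stars shown lie in the rows of HYAL1 (5) and HYAL2 (2), and 6 of them are positive; within clone groups r was 0.630 for HYAL1 with LYVE1 and 0.425 for HYAL2 with ACAN.

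Outside the pathway, the genes whose pattern was most like that of each gene were taken from all 11877 others by Pearson r over the 17 clones. The permutation p of rho for the genes named here ran from 1e-05 to 0.0407, the latter for ATP2B3 with HAS1. For HAS2 these were AK4, a mitochondrial adenylate kinase (r = 0.840, rho = 0.846), IL6, the inflammatory cytokine, and JAM2, a junctional adhesion molecule (r = 0.839, rho = 0.848), and the most opposed was CGN, a tight-junction protein (r = -0.883, rho = -0.838). Their permutation p-values were 4e-05, 1e-05 and 1e-05 for AK4, JAM2 and CGN, the last being the smallest that 100000 permutations can give, and all had an adjusted p of 0.0528. IL6 had 1302 and 1832 reads in C and O and 23 to 547 in the other 15 clones, and within these 15 it gave r = 0.859 with HAS2 (permutation p = 4e-05, rho = 0.875). Its level was lowest in K and L, at 1.65 and 1.78 CPM, and Het had 3.87 CPM. CGN was highest in K, at 18.5 CPM, the clone with the least HAS2, and without K its correlation with HAS2 was -0.827 (permutation p = 0.00012).

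For HAS3 the genes were CLVS1 (r = 0.901, rho = 0.833), ABHD17C, which removes palmitate from proteins (r = 0.869, rho = 0.836), and TMEM158 (r = 0.860, rho = 0.873), with KIAA0247 most opposed (r = -0.882, rho = -0.892). Their permutation p-values adjusted over all genes were 0.0297, 0.0339, 0.0297 and 0.0297, but CLVS1 had only 0 to 29 reads. TMEM158 ran from 40.0 CPM in D to 131.7 CPM in L, and L and A, the 2 clones with the most HAS3, had the most of it.

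HYAL1 was nearest to SCAMP2, a secretory carrier membrane protein (r = 0.958, rho = 0.900), YIPF3, a Golgi protein (r = 0.949, rho = 0.900), and TMEM175, a potassium channel of lysosomes (r = 0.931, rho = 0.934). PAICS, an enzyme of purine synthesis, was most opposed (r = -0.949, rho = -0.909). All 4 had an adjusted permutation p of 0.00156 and kept |r| of at least 0.900 without L and G.

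HYAL2 was nearest to ZDHHC5, a palmitoyltransferase (r = 0.912, rho = 0.860), and HSPA6, an inducible heat shock protein with 2 to 25 reads (r = 0.911, rho = 0.890), both with an adjusted permutation p of 0.0132. RAB11FIP4, of recycling endosomes, had 46 to 114 reads in C, O and P and 0 to 16 in the other 14 clones, within which r was 0.714 (permutation p = 0.00439, rho = 0.679). EIF3M, a translation initiation factor subunit, was most opposed (r = -0.889, rho = -0.853, adjusted permutation p = 0.0148). Without C and O the values of ZDHHC5, HSPA6 and EIF3M were 0.828, 0.857 and -0.896.

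TMEM2 was nearest to KCNK1, a potassium channel (r = 0.907, rho = 0.799), and to MINPP1 and IMPA1, which act on inositol phosphates (r = 0.881 and 0.852, rho = 0.748 and 0.821). ATG16L2 was most opposed (r = -0.876, rho = -0.801). Their adjusted permutation p-values were 0.0396, 0.0445, 0.0396 and 0.0445, beside only 8 genes called with TMEM2 in all. Clones C and O, the most alike pair, had the most TMEM2, KCNK1, MINPP1 and IMPA1 and the least ATG16L2, and were counted as separate points. Without D and O the values of KCNK1, MINPP1, IMPA1 and ATG16L2 were 0.825, 0.752, 0.788 and -0.783. For HAS1 and TNFAIP6 no gene passed. The highest values for HAS1 were ATP2B3, a calcium pump (r = 0.777, but 0.323 without the 2 farthest clones), AGAP2 (r = 0.755) and ENKD1 (r = 0.747), and the lowest was PCDH9, a protocadherin (r = -0.775), all with an adjusted permutation p of 0.851. The highest for TNFAIP6 were C17H4orf29 (r = 0.791), CPXM1 (r = 0.785) and NFYA, a transcription factor subunit (r = 0.784), and the lowest was UACA (r = -0.781), all with an adjusted permutation p of 0.416.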

How the data were processed

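The authors aligned single-end poly-A reads to the bovine genome bosTau7 (STAR 2.3.0e per the submitters' processing notes) and counted them on RefSeq genes with HTSeq. The deposited values are raw counts per gene, and 5 tally rows per library were left out. Reads on no gene were 18.8% to 26.8% of each library and ambiguous reads 0.164% to 0.192%. The library kit does not mark strand, so overlapping genes are uncertain. Gene neighbours come from the RefSeq annotation of another assembly, ARS-UCD2.0, and no coordinates are given. A series-wide table was not used. The 7 genes and the gene lists were chosen with earlier results of these data known.

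Counts were scaled with TMM and tested in edgeR 4.0.16 (filterByExpr, quasi-likelihood test, Benjamini-Hochberg) under R 4.3.3. Levels are CPM, and log2 values are log2(CPM + 0.25). Correlations used 100000 two-sided permutations in Python 3.11.15, numpy 2.4.6 and scipy 1.17.1, adjusted over the 11877 other genes. Clones were taken as falling into groups where log2 values left a gap of more than 1. Genes named are the 7, pathway genes called in a comparison or fixed by name, and for each of the 7 the 3 highest and 1 lowest correlations. Other genes with values were named after these were seen. Values of 1 pathway gene, which stays in the counts, are not reported here. Scripts were tested on simulated data. Alternatives were DESeq2 1.42.0, other scaling, filters and pseudocounts, C and O merged, and leaving out clones. The 13 clones with less MKI67 were chosen after seeing the data.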

Additional observations from a re-analysis of the deposited data

How the results depend on the processing

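Of 848 values recomputed under alternatives, 785 were taken as kept. For a difference or correlation that meant the same direction and side of the threshold, and for an SD a shift within its error. For a count of calls a set fold change was allowed, under which 8 and 12 calls were alike. Of the rest, 45 lost and 5 gained a call, 10 moved and 3 reversed. The kept values include results without a call that stayed without one, and some pairs entered from both genes. All 45 losses fell on the 8 correlations called, from 2 of 25 alternatives for HYAL1 with HEXA to 14 of 25 for HYAL2 with GFPT2. The pooled share therefore says little about how stable those correlations were. The reversals were the difference of TMEM2 between Het and the clones, -0.0716 with library totals, -0.0199 without clone D and -0.0028 without clone J, in a range of -0.0199 to 0.0954 with single clones left out. None of the 7 genes was called for Het under any alternative, and HAS2 ranged from -2.98 to -2.77. The pathway genes called for Het fell from 2 to 1 with at least 1 CPM in 9 libraries, where HAPLN4 was filtered out, and stayed at 2 to 2 with single clones left out. For each clone against the rest the calls rose from 0 to 1 with DESeq2 and to 1 with library totals, UGP2 in N both times. The 8 correlations called became 0 in the 13 clones with less MKI67, 0 without the 2 farthest clones, 6 with C and O averaged and 4 to 11 with single clones left out (4 without O), all on fewer clones, and rose to 12 with library totals. No share over all genes was computed for these settings, so the changes are not particular to these partners. With a pseudocount of 1 the SD was 0.55 for HAS1, 0.61 for HAS2, 0.73 for HAS3 and 0.54 for TNFAIP6. With single clones left out it was 0.77 to 0.95, 0.75 to 0.90, 0.76 to 0.92 and 0.98 to 1.08. The sparse reads of HAS1, HAS2 and TNFAIP6 limit what can be seen in single libraries, and with 1 library a clone no value has a replicate. No paired analysis was possible, because each clone and Het had 1 library and the labels give no pairing between them.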
